A study of Mus musculus with 6 samples.

Results

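The type I interferon-stimulated genes described here are 39 named genes whose transcripts are known to rise when cells respond to type I interferon. They were taken from the deposited expression table by their gene names. Of the 39 names, 38 matched 1 row each among 17761 rows in all, and Mx2 was not analysed here. RNA-seq counts came from 6 mouse samples, 3 labelled Control and 3 labelled Model. In the Model the inferior vena cava, the main vein of the lower body, was tied off by surgery, and the vein was collected with its clot after 24 h. The labels name thrombus as the tissue of every sample and do not say what the Control animals underwent. The sources used here do not give strain, sex, age or pooling. Whether replicates are different animals is not stated either, so the p-values reflect variation among these libraries, part of which may be technical.

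Type I interferons are secreted proteins that bind the IFNAR1 and IFNAR2 receptor chains on almost every cell. The kinases JAK1 and TYK2 then act on STAT proteins, STAT2 among them, which join IRF9 in the complex ISGF3 and switch on genes that carry an interferon-stimulated response element. The products of these genes sense foreign RNA, degrade or block it, and feed back on the signal. Leukocytes, endothelial cells and fibroblasts can all make this response.

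Promoters of several members are shown because ISGF3 acts through the response element described above. RefSeq promoter windows on GRCm38.p6, reaching from 250 bases before to 50 bases after each annotated start, were found for 29 of the 38 members. The other 9 are Usp18, Oas2, Mx1, Dhx58, Zbp1, Parp9, Parp14, Rtp4 and Tor3a. The core motif is GAAA, any 2 bases, then GAAA, or TTTC, 2 bases and TTTC when it lies on the other strand. It occurred in 13 of the 29 (44.8%). In the same windows of all 27025 genes with an entry it occurred in 1079 (3.99%). Of the 11 members with a window that passed the gene test described below, 6 held the motif, and of the 18 that did not pass it, 7 did. The 200 bases before the RefSeq start are printed 5′ to 3′ on the gene's own strand, with motif matches in capitals. Rsad2, Oas3 and Ifit1 passed the test and hold a match. Ifit3 and Isg15 hold matches and did not pass it, and the 3 matches of Isg15 overlap each other. Trim25 passed it without a match in this window.
Rsad2, chr12:26456453-26456652, minus strand: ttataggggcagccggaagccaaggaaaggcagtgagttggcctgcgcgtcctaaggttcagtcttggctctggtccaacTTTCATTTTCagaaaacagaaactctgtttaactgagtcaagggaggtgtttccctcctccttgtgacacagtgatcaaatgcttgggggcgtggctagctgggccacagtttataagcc
Oas3, chr5:120777660-120777859, minus strand: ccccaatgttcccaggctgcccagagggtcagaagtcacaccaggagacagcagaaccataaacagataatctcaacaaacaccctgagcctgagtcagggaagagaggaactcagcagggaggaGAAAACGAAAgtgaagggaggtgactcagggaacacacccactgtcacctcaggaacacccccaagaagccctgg
Ifit1, chr19:34640689-34640888, plus strand: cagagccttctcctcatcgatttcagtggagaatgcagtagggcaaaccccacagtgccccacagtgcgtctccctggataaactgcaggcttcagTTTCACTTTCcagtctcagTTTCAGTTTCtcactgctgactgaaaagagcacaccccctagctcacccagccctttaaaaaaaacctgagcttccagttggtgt
Ifit3, chr19:34583329-34583528, plus strand: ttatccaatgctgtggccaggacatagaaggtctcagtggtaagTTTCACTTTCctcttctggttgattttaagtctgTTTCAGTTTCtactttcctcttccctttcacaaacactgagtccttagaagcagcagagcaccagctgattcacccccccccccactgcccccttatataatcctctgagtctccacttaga
Isg15, chr4:156200819-156201018, minus strand: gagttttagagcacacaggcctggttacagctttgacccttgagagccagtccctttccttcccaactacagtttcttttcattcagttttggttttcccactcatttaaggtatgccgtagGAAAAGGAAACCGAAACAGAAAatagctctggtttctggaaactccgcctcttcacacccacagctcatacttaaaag
Trim25, chr11:88999203-88999402, plus strand: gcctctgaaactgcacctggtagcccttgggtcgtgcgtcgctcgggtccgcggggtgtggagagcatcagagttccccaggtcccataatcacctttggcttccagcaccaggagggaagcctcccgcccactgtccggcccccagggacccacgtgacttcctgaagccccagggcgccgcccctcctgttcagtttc

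The 38 genes were as a group more abundant in the Model samples. The rise was called for 13 of them: Rsad2, Oas3, Oas2, Oasl2, Ifit1, Ifit2, Ifitm3, Xaf1, Irf7, Trim25, Parp9, Ddx58 and Stat2. None was called lower, and Nmi, the only member with a lower fitted level in the Model, had an unadjusted p of 0.376. The test was edgeR's quasi-likelihood test over all 13907 genes that passed a filter on low counts, with Benjamini-Hochberg adjusted p below 0.05. The same test called 2.71% of all tested genes higher and 1.36% lower (4.07% in either direction). DESeq2 called 21 of the 38 higher and none lower, against 4.97% of all its tested genes called higher, and limma-voom 13 and none, against 2.5%, with Ifit3 in place of Ifit2. An unadjusted p below 0.05 was found for 29 of the 38, against 15.8% of all genes. The log2 fold change of Model over Control was positive for 37 of 38, against 49.6% of all tested genes, with a median of 1.47 against -0.01. It was at least 1, a doubling, for 26 members (13.4% of all genes) and at most -1 for none (16.5%). All 3 Model libraries lay above all 3 Control libraries for 27 members, against 12.1% of all tested genes, and below them for none (11.4%). All 38 members passed the filter, and 37 had at least 10 counts in every library. In bulk tissue, a change in how many cells of a type are present cannot be told apart from a change in RNA per cell.

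Libraries stood apart in ways that touch these counts. Total counts were between 31924426 and 38118463 in Control and between 25336173 and 28193281 in Model. Levels are given as counts-per-million values (CPM), with library sizes scaled by edgeR's TMM method. By this measure Model 2 held the highest level of 33 of the 38 members, and the members took 0.901% of its counts against 0.472% in Model 1 and 0.535% in Model 3. In Control the shares were 0.31%, 0.257% and 0.336%. Control 1 held the lowest level of 20 members and also the highest Control level of 13. Without Model 2 the number of members called fell to 3 (Ifitm3, Rsad2 and Trim25), against 1.93% of all genes called higher. It was 7 without Control 1 (2.05% of all genes) and 4 without both of these libraries (Ifit3, Rsad2, Stat2 and Trim25; 1.55%). Leaving out Control 2 gave 6 (1.91%), and leaving out Model 1 gave 6 (1.5%). The median log2 fold change was 1.32 without Control 1, 1.17 without Model 2 and 1.05 without both, and 36 of the 38 were positive in each of 14 alternative settings.

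**Figure D1:**
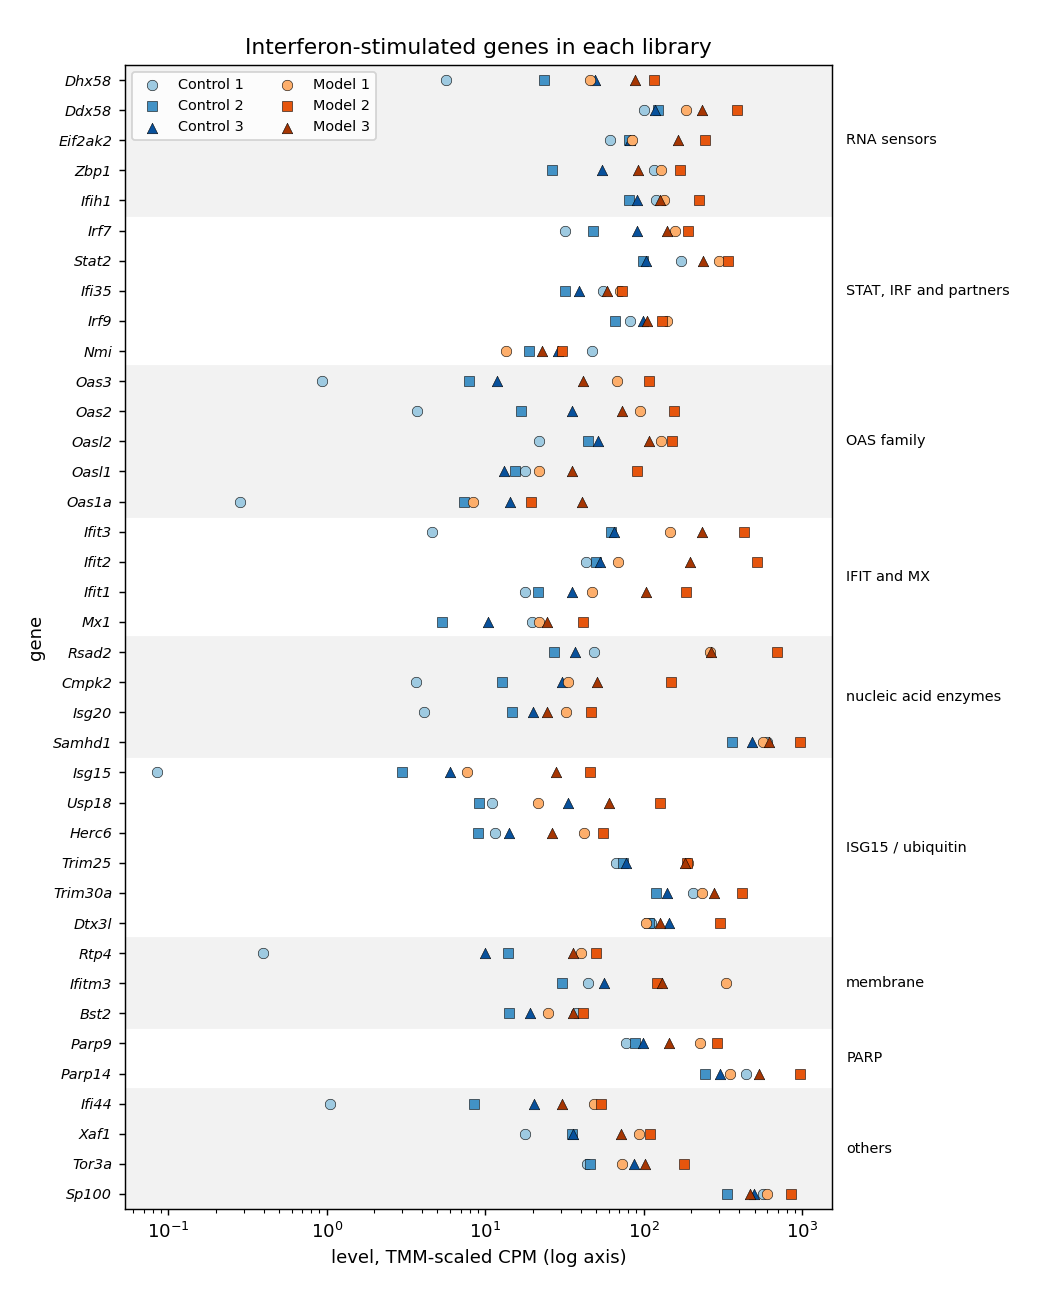
Level of each gene in each library, as TMM-scaled CPM on a log axis, with 1 marker per library and genes grouped by role. All 3 Model markers lie to the right of all 3 Control markers for 27 of the 38 genes, and Model 2 holds the highest level of 33.

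Neutrophil, red cell and platelet genes were higher in the Model samples, as the members were, while lymphocyte genes were lower. The summed level of 14 neutrophil genes was 45.5, 74.6 and 149 CPM in Control 1 to 3 and 3577, 7298 and 3885 CPM in Model 1 to 3, and 10 of the 12 tested were called higher. The neutrophil gene Ly6g was at 0 in all 3 Controls and at 0.0404, 12.3 and 5.79 CPM in Model 1 to 3, the first of which rests on 1 count. Camp, which like Ly6g did not enter the test, went the other way. It had 48 counts in Control 2, 1 in Model 1 and 0 elsewhere. For 9 red cell genes the sums were 348 to 490.1 CPM in Control and 5006 to 29250 CPM in Model, highest in Model 2, with 6 of 8 tested called higher. For 15 platelet genes they were 173 to 301 CPM in Control and 1005 to 2671 CPM in Model, highest in Model 1, with 13 called higher. The Control samples, although labelled thrombus, thus had lower sums of red cell and platelet transcripts than every Model sample. The sums of 10 hepatocyte genes were 34.5 to 600.3 CPM in Control and 44.6 to 159 CPM in Model 1 and Model 3, but 5478 CPM in Model 2, and none of the 8 tested was called. The 14 monocyte and macrophage markers summed to 914 to 1810 CPM in Control and 891 to 1476 CPM in Model. Of the 13 tested, 2 were called higher and 0 lower, and 6 had a positive and 7 a negative log2 fold change (median -0.21). T and NK cell genes (14) summed to 566 to 1405 CPM in Control, highest in Control 1, and to 189.6 to 290.4 CPM in Model, with 6 called lower. B cell genes (10) summed to 906 to 1548 CPM in Control and at most to 588 CPM in Model, with 4 called lower. Endothelial genes (12) summed to 2599 to 2996 CPM in Control and 2294 to 3427 CPM in Model, with 1 called higher. Contractile smooth muscle genes (10) summed to 3728 to 5712 CPM in Control and 1487 to 3202 CPM in Model, with 1 called lower. Of all tested genes, 2.71% were called higher and 1.36% lower. The part of these cell markers in the interferon-stimulated genes was not tested.

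**Figure D2:**
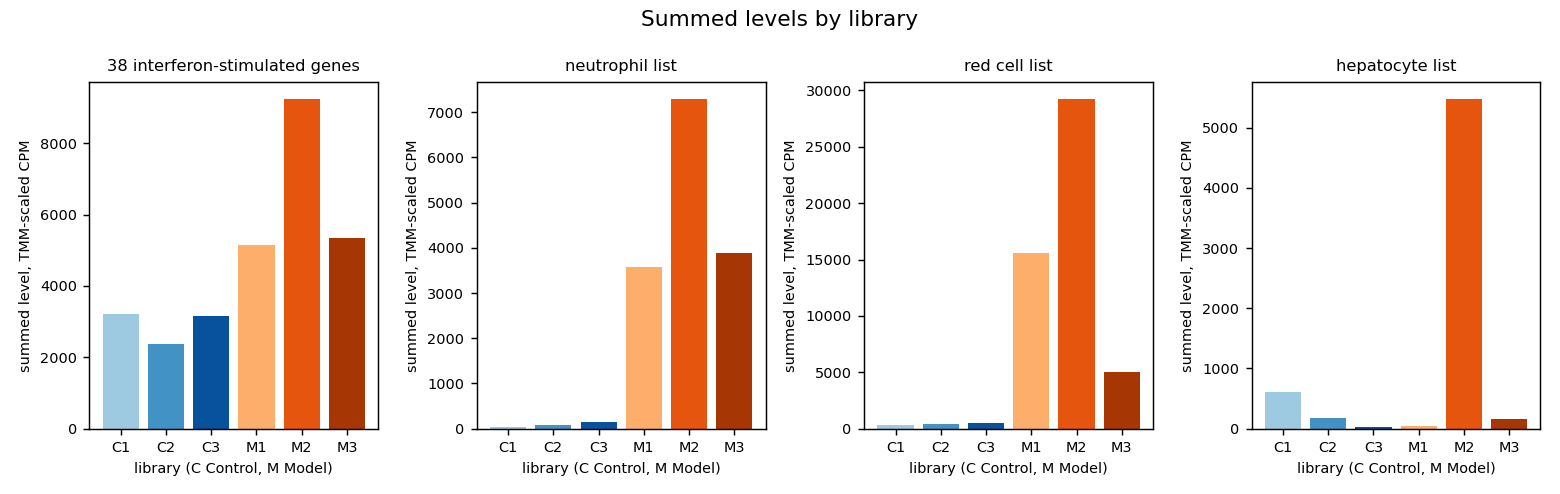
Summed TMM-scaled CPM in each library (C1 to C3, Control; M1 to M3, Model) of the 38 interferon-stimulated genes and of the neutrophil, red cell and hepatocyte lists, each on its own axis from 0. Model 2 is highest in all 4 panels, and the members sum to 9247 CPM there against 5139 CPM in Model 1 and 5342 CPM in Model 3. Lists not shown varied: among Model libraries, platelet and endothelial genes were highest in Model 1, and monocyte and macrophage genes in Model 2.

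Among the nucleotide and nucleic acid enzymes, Rsad2 had the largest fold change of all 38 members. It encodes viperin, which turns CTP into a chain terminator of viral RNA synthesis (ENSMUSG00000020641, chromosome 12, 26442746 to 26456452 of GRCm38). Its level was 48.8, 27.3 and 37.1 CPM in Control 1 to 3 and 260.3, 688 and 267 CPM in Model 1 to 3. The lowest Model library lay 5.34-fold above the highest Control library. The log2 fold change was 3.42 (standard error, SE, 0.41, adjusted p = 5.00e-04), and Rsad2 was called in all 14 alternative settings, with log2 fold changes from 2.80 to 3.65. Elsewhere, a value in parentheses before its SE is the log2 fold change of Model over Control. Cmpk2, a mitochondrial nucleotide kinase, lies head to head with Rsad2 at a distance of 12751 bases. Its levels of 3.68, 12.8 and 30.7 CPM in Control and 33.3, 149 and 50.8 CPM in Model did not overlap, yet the fold change of 2.30 (SE 0.73) was not called (adjusted p = 0.114). It was called without Control 3 (3.23, adjusted p = 0.0267). Isg20, an exonuclease of single-stranded RNA, averaged 12.9 ± 8.04 CPM over the Controls against 34.5 ± 11.0 CPM over the Models (SD, n = 3 per group), also without overlap and not called (1.41, SE 0.65, adjusted p = 0.311). Samhd1, which breaks down deoxynucleotides, was the most abundant of these enzymes by CPM. It was at 603, 362 and 482 CPM in Control and 567, 966 and 621 CPM in Model, where the groups overlap, and had a fold change in log2 units of 0.57 (SE 0.29, adjusted p = 0.358).

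The OAS family makes short 2′-5′ linked adenylate chains that activate RNase L. All 5 of its members had a log2 fold change of at least 1, and 3 were called higher. Oas3 (chromosome 5, 120753098 to 120777661) was measured at 0.934, 7.89 and 11.8 CPM in Control 1 to 3 and 67.8, 109 and 41.5 CPM in Model 1 to 3. Every Model library held at least 3.52-fold more than the highest Control, and the log2 fold change was 3.40 (SE 0.76, adjusted p = 0.0252). For Oas2, the levels were 3.74, 16.8 and 35.4 CPM in Control and 95.1, 156 and 73.2 CPM in Model, so that the log2 fold change was 2.54 (SE 0.64, adjusted p = 0.0449). Oasl2, an OAS-like protein that keeps synthetase activity in mouse, went from 21.9, 44.2 and 51.1 CPM to 128, 151 and 107 CPM (1.72, SE 0.36, adjusted p = 0.0176). In all 3 genes Control 1 was the lowest library and Model 2 the highest. Oasl1, which restrains Irf7 translation in mouse, was at 17.9, 15.5 and 13.2 CPM in Control. Its Model levels of 21.7, 90.1 and 35.1 CPM lay above these, mostly through Model 2, and the fold change was not called (1.66, SE 0.56, adjusted p = 0.147). It was 0.86 without Model 2. Oas1a overlapped between groups, with 0.283, 7.30 and 14.3 CPM in Control and 8.40, 19.6 and 40.9 CPM in Model (1.65, SE 1.09, adjusted p = 0.520), and may share reads with its close copy Oas1g. The calls of all 3 called genes were lost without Model 1 (adjusted p = 0.0727 for Oas3, 0.105 for Oas2 and 0.0579 for Oasl2) and without Model 2 (0.0893, 0.128 and 0.0599). Oas2 lost its call also without Control 2 (0.102), with upper-quartile scaling (0.0697) and at a minimum count of 100 (0.0570).

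IFIT1 binds viral RNA at its 5′ end, and the Ifit genes sit side by side on chromosome 19. Ifit1 was at 17.7, 21.6 and 35.1 CPM in Control 1 to 3 and at 47.2, 185 and 104 CPM in Model 1 to 3 (log2 fold change 2.18, SE 0.48, adjusted p = 0.0246). Ifit2 was even across Controls, with 43.5, 49.8 and 53.0 CPM, and uneven across Models, with 69.0, 517 and 197 CPM (2.42, SE 0.54, adjusted p = 0.0241). The Model libraries thus differed 7.49-fold among themselves for Ifit2, with Model 1 only 1.30-fold above the highest Control. Without Model 2 the fold changes of Ifit1 and Ifit2 were 1.60 and 1.44 and the calls were lost (adjusted p = 0.136 and 0.0949). Both calls were also lost without Control 1 (0.108 and 0.125), that of Ifit1 without Control 2 (0.0671) and that of Ifit2 with limma-voom (0.0673). Ifit3, which can share reads with its near copy Ifit3b, was at 4.59, 62.5 and 65.1 CPM in Control and 146, 428 and 232 CPM in Model. The groups are far apart except that Control 1 is 14.2-fold below the highest Control, and the fold change of 2.61 (SE 0.71) was not called (adjusted p = 0.0643). Ifit3 was called without Control 1 (2.06, adjusted p = 0.0325), without Control 3 (0.0467) and with both Control 1 and Model 2 left out (1.57, 0.0456). Mx1, a dynamin-like GTPase that traps viral nucleoprotein, averaged 11.9 ± 7.36 CPM over the Controls against 29.3 ± 10.7 CPM over the Models and was not called (1.30, SE 0.66, adjusted p = 0.373).

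Of the sensors of foreign RNA, Ddx58, the gene of RIG-I, was called. Its levels were 101.0, 124 and 118 CPM in Control 1 to 3 and 185, 385 and 234 CPM in Model 1 to 3, for a log2 fold change equal to 1.23 (SE 0.29, adjusted p = 0.0322). Its Controls differed 1.22-fold among themselves, and every Model lay above the highest of them. Leaving out any 1 Control, or Model 2, ended the call (adjusted p = 0.116, 0.0656, 0.0849 and 0.156), as did upper-quartile scaling (0.0520). Ifih1, which encodes the long-RNA sensor MDA5, was at 119.9, 80.2 and 90.8 CPM in Control and 134, 224 and 127 CPM in Model. These groups did not overlap but lay close (0.74, SE 0.29, adjusted p = 0.229). Dhx58, the gene of LGP2, which tunes both sensors, had a log2 change of 1.67 (SE 0.63, adjusted p = 0.199), from 26.3 ± 22.1 to 83.5 ± 35.5 CPM, and was called without Control 3 (2.51, adjusted p = 0.0465). Eif2ak2, the RNA-activated kinase PKR, had a log2 change of 1.13 (SE 0.35, adjusted p = 0.108) and was called without Model 1 (1.44, adjusted p = 0.0318). Zbp1, a sensor of Z-form nucleic acid that can start necroptosis, ranged from 26.3 to 116 CPM in Control and from 92.4 to 169 CPM in Model, with overlap (0.98, SE 0.45, adjusted p = 0.316).

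Among transcription factors and their partners, Irf7 and Stat2 were called higher. Irf7, which amplifies interferon production, was at 32.0, 47.6 and 90.7 CPM in Control 1 to 3 and at 158, 191 and 140.4 CPM in Model 1 to 3 (log2 fold change 1.52, SE 0.36, adjusted p = 0.0355). Stat2, the subunit specific to ISGF3, was at 172, 99.4 and 104 CPM in Control and 301, 338 and 238 CPM in Model (1.22, SE 0.28, adjusted p = 0.0271). Model lay above Control in both genes, with Control 1 the lowest library for Irf7 and the highest Control for Stat2. Irf9, the DNA-binding partner of STAT2, had a smaller difference, from 81.6, 66.0 and 98.3 CPM to 139.5, 131 and 105 CPM, that was not called (0.61, SE 0.28, adjusted p = 0.300). Ifi35 and Nmi encode proteins that bind each other. Ifi35 went from 42.1 ± 12.2 to 67.5 ± 8.02 CPM (0.68, SE 0.36, adjusted p = 0.394). Nmi was the only member with a negative fold change (-0.50, SE 0.55, adjusted p = 0.745), at 47.1, 18.8 and 28.7 CPM in Control and 13.5, 30.4 and 22.8 CPM in Model. For Irf7 the call ended when Control 1, Control 2, Model 1 or Model 2 was left out (adjusted p = 0.0993, 0.105, 0.0956 and 0.104), and with upper-quartile scaling (0.0601). For Stat2 it ended when Control 2, Control 3, Model 1 or Model 2 was left out (0.0989, 0.115, 0.0941 and 0.0939).

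ISG15 is a ubiquitin-like protein that is secreted or attached to other proteins, and none of Isg15, Usp18 and Herc6 was called. Isg15 was at 0.0849, 2.97 and 5.98 CPM in Control 1 to 3 and at 7.68, 45.9 and 27.9 CPM in Model 1 to 3. The value in Control 1 rests on 3 counts. The groups did not overlap, and the log2 fold change of 3.17 was not called (SE 1.19, adjusted p = 0.197). It was 2.59 without Control 1 and 1.99 without both Control 1 and Model 2. Usp18, the protease that removes ISG15 and blocks IFNAR2 signalling, ranged from 9.15 to 33.2 CPM in Control and from 21.4 to 128 CPM in Model, with overlap (1.97, SE 0.66, adjusted p = 0.142), and was called without Control 3 (2.78, adjusted p = 0.0402). Herc6, the main ISG15 ligase in mouse, went from 11.6 ± 2.58 to 41.3 ± 14.4 CPM (1.83, SE 0.53, adjusted p = 0.0814).

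Trim25, a ubiquitin ligase that activates RIG-I, was the most even member (ENSMUSG00000000275, chromosome 11, 88999376 to 89020293). Its levels were 67.2, 74.4 and 77.4 CPM in Control 1 to 3 and 190.0, 188 and 183 CPM in Model 1 to 3. The libraries of a group differed at most 1.15-fold, and every Model library was at least 2.36-fold above every Control. The log2 fold change was 1.36 (SE 0.24, adjusted p = 0.00612). It stayed between 1.29 and 1.40 in the 14 alternative settings and was called in each. Of the other ubiquitin ligases, Trim30a, a mouse member of the TRIM family, was at 204, 120.1 and 141 CPM in Control and 233, 414 and 276 CPM in Model, without overlap and not called (0.99, SE 0.29, adjusted p = 0.0867). Dtx3l, which works in a complex with PARP9, was at 111, 108 and 144 CPM in Control and 104, 301 and 126 CPM in Model (0.55, SE 0.36, adjusted p = 0.522). Only Model 2 was above the highest Control, and without it the fold change was -0.08.

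Parp9, a gene of the ADP-ribosyltransferase family, was called higher while its neighbour Dtx3l was not called. Its levels were 77.8, 88.5 and 98.9 CPM in Control 1 to 3 and 226, 290.1 and 144 CPM in Model 1 to 3 (log2 fold change 1.32, SE 0.29, adjusted p = 0.0226). The 2 genes overlap head to head on chromosome 16 and share 458 exonic bases on opposite strands, and reads from that stretch cannot be assigned without a stated strand setting. The difference between their fold changes was not tested. Parp14, a mono-ADP-ribosyltransferase, overlapped between groups with 440.0, 243 and 304 CPM in Control and 351, 965 and 535 CPM in Model (0.91, SE 0.36, adjusted p = 0.221). Leaving out Control 1, Control 2, Model 1 or Model 2 ended the call of Parp9 (adjusted p = 0.0837, 0.0610, 0.0735 and 0.104).

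Of the 3 members that act at membranes, Ifitm3, which hinders viral fusion in endosomes, was called higher. It was at 44.6, 30.4 and 55.9 CPM in Control 1 to 3 and at 330.4, 121 and 130 CPM in Model 1 to 3 (log2 fold change 2.15, SE 0.41, adjusted p = 0.0101). Here Model 1 was the highest library and Model 2 the lowest Model library, unlike most members. The call was lost without Model 1 (1.52, adjusted p = 0.0552) and without Control 1 (2.15, 0.0526). Per kilobase of exon, Ifitm3 was the most abundant member in both groups, at 64.4 CPM per kb in Control and 286 CPM per kb in Model. Rtp4, a receptor transporter protein, was at 0.396, 13.97 and 9.98 CPM in Control and 40.4, 50.1 and 35.6 CPM in Model. The groups were well apart, but Control 1 was 35.3-fold below the highest Control, and the fold change was not called (2.37, SE 0.90, adjusted p = 0.200). Bst2, or tetherin, which holds budding virus at the cell surface, overlapped with 37.4, 14.1 and 19.2 CPM in Control and 25.1, 41.3 and 36.1 CPM in Model (0.53, SE 0.52, adjusted p = 0.706).

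Xaf1, which promotes apoptosis by opposing XIAP, was called higher among the other 4 members. Its levels were 17.9, 35.1 and 35.9 CPM in Control 1 to 3 and 93.5, 109.7 and 72.1 CPM in Model 1 to 3 (log2 fold change 1.63, SE 0.38, adjusted p = 0.0326). The lowest Model was 2.01-fold above the highest Control. The call was lost without any 1 library except Model 3 (adjusted p from 0.0568 to 0.120) and with upper-quartile scaling (0.0528). Ifi44, a protein of the cytoplasm, was at 1.05, 8.47 and 20.3 CPM in Control and 48.6, 54.0 and 30.4 CPM in Model, without overlap and not called (2.16, SE 0.81, adjusted p = 0.198). Tor3a, an ATPase of the torsin family, went from 59.0 ± 24.2 to 118 ± 55.2 CPM, with overlap, and was not called (adjusted p = 0.221). Sp100, a scaffold of nuclear bodies, was at 564, 334 and 496 CPM in Control and 597, 855 and 469 CPM in Model, also with overlap (0.46, SE 0.29, adjusted p = 0.495).

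**Figure D3:**
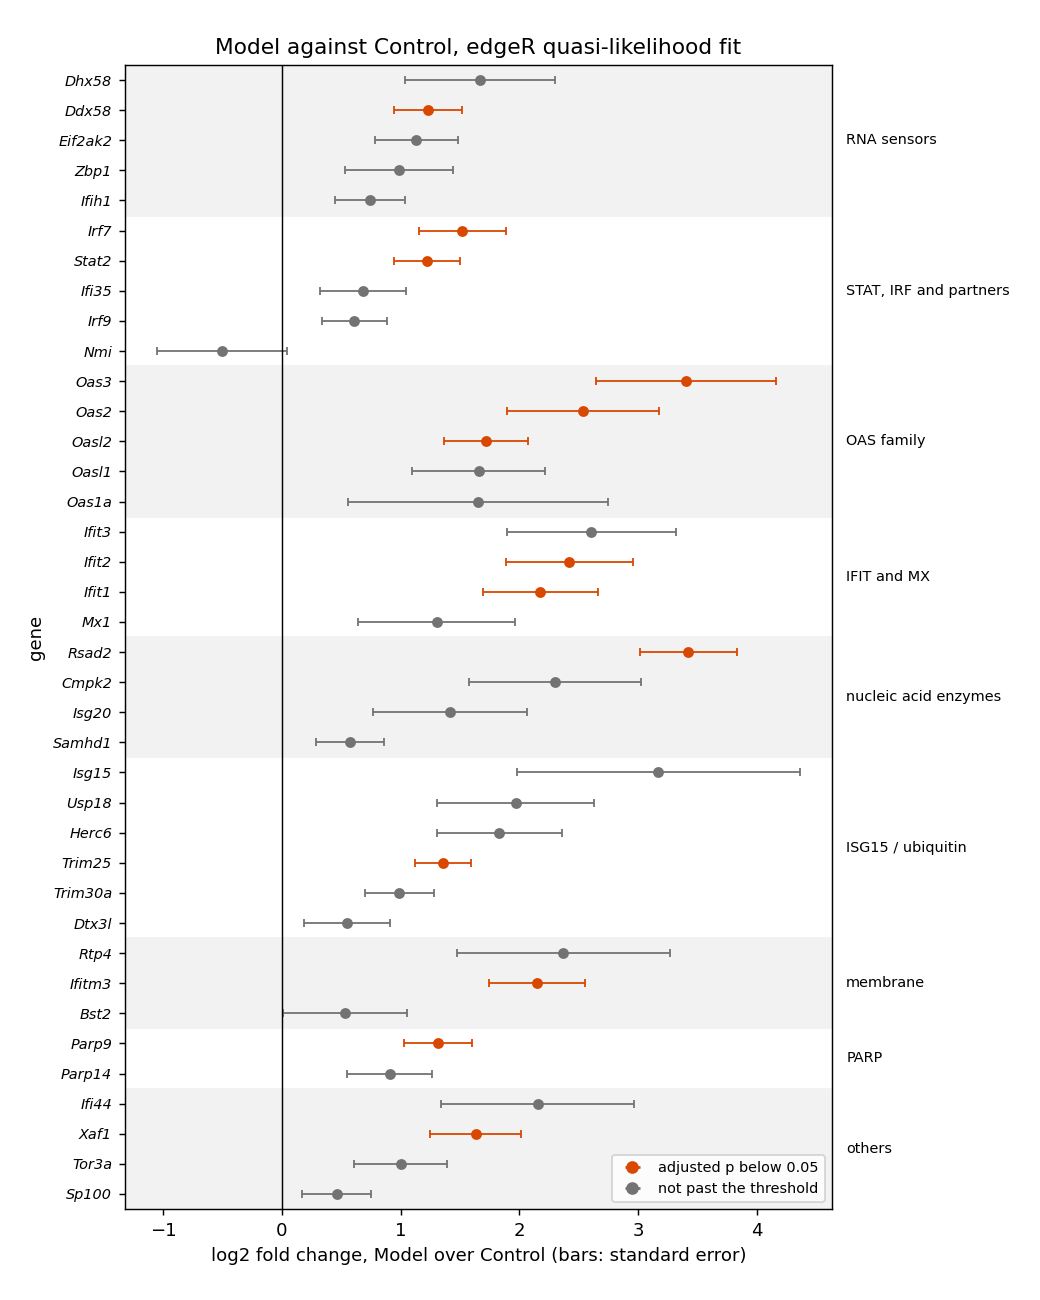
Log2 fold change of Model over Control for each member with its standard error, grouped by role. Orange points mark the 13 members with adjusted p below 0.05, and Nmi is the only point left of 0.

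The members differed in how abundant they were, and their order by abundance differed between the groups. Divided by exon length, the most abundant members in Control were Ifitm3, Sp100, Samhd1, Trim30a and Parp14, with 64.4, 61.5, 52.7, 37.7 and 35.4 CPM per kb. Of these only Ifitm3 was called. In Model the order began with Ifitm3, Ifit3 and Rsad2, at 286, 154 and 93.4 CPM per kb. By the same measure Oas3 was the lowest member in Control (0.973 CPM per kb) and Herc6 the lowest in Model (4.45 CPM per kb). By rank, Rsad2 moved from place 23 to 3 and Ifit2 from 20 to 7, while Nmi went from 14 to 34.

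**Figure D4:**
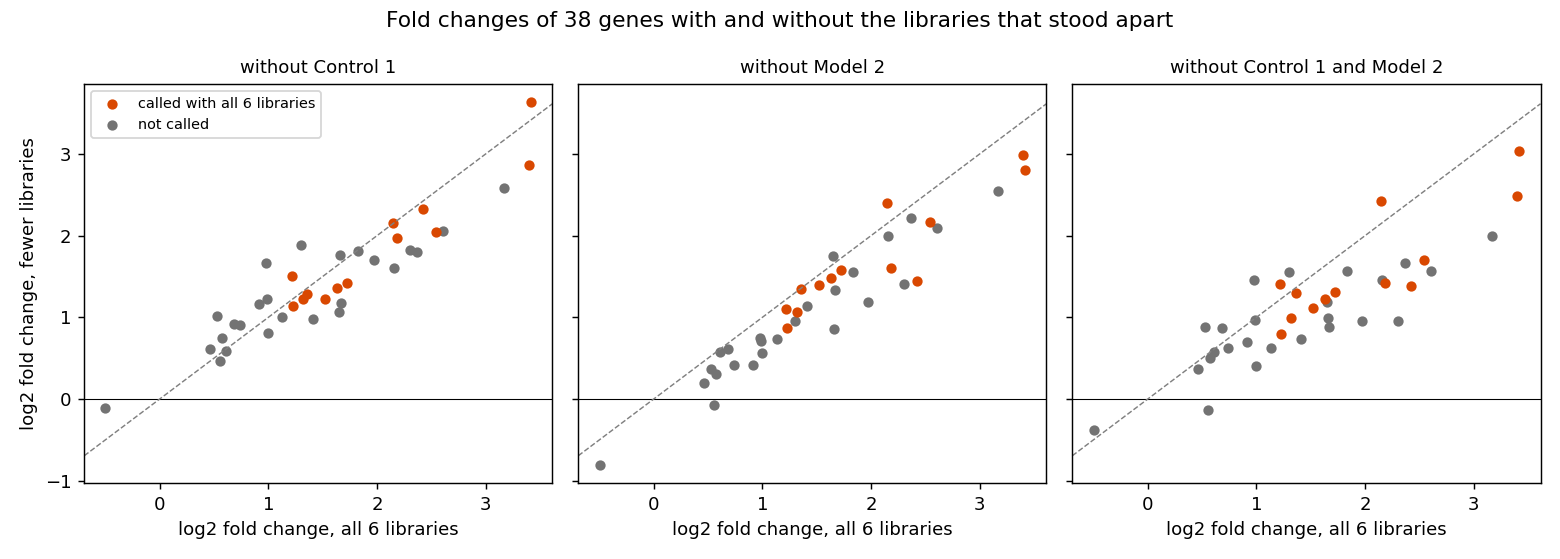
Log2 fold change of each member with all 6 libraries (horizontal) against the same without Control 1, without Model 2 and without both (vertical), with equality as a dashed line. The median falls from 1.47 to 1.32, 1.17 and 1.05, and Dtx3l crosses 0 without Model 2.

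Upstream of these genes, transcripts of the interferons themselves were scarce. Ifnb1, interferon beta, had 32 counts (1.26 CPM) in Model 3 and 0 in the other 5 libraries, where the 3 counts that a 0 allows are 0.0787 to 0.111 CPM of the unscaled library size. It did not enter the main test, and without a filter it was not called (adjusted p = 0.288). Ifnk, interferon kappa, had 97 counts in Control 1 (2.75 CPM), at most 3 in the other Controls and 0 in Model. Ifna4, Ifnab and the type III gene Ifnl2 had 1 count each over all libraries. The other ligands on the list, Ifng among them, were not analysed here. None of 9 receptor and kinase genes was called (median log2 fold change -0.09). The log2 fold change was -0.36 for Ifnar1 (95% interval -1.42 to 0.70) and -0.13 for Ifnar2 (-0.97 to 0.71), intervals that leave room for changes either way.

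Of 9 STAT and IRF genes outside the members, 1 was called higher and 1 lower. Stat3, which signals for interleukin 6 and its relatives, rose by 1.14 on the log2 scale (SE 0.24, adjusted p = 0.0194), a call that ended when Control 2, Control 3, Model 1 or Model 3 was left out (0.0569 to 0.0799). Irf8, a factor of dendritic cells, monocytes and B cells, fell by 1.93 on the log2 scale (SE 0.34, adjusted p = 0.00610) and lost its call without Model 1 (0.0508). For Irf1 the log2 fold change was -0.57 (SE 0.34, adjusted p = 0.465) and Irf3, which starts interferon transcription, 0.01 (SE 1.04, adjusted p = 0.999) with means of 9.89 ± 7.64 CPM (Control) and 9.96 ± 6.17 CPM (Model). None of 19 adaptors and kinases of nucleic acid sensing was called (median 0.21). Markers of plasmacytoid dendritic cells, a major source of type I interferon, summed to 603 to 1093 CPM over 12 genes in Control and 466 to 645 CPM in Model. Of 10 tested, 3 were called lower, Siglech (-2.65), Ccr9 (-4.59) and Irf8, and none higher, against 1.36% of all tested genes called lower. By sign 7 were negative and 3 positive, namely Tcf4 (0.53), Bst2 (0.53) and Ly6d (0.17), none of them called. The size of the Ccr9 value rests largely on Control 1. Ccr9 was at 144, 10.1 and 12.1 CPM in Control 1 to 3 and 2.91, 3.13 and 0.867 CPM in Model 1 to 3. The member Bst2 is also on that list.

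Among 13 negative regulators, Socs3 was called higher and Ptpn6 lower. Socs3, a feedback inhibitor of cytokine receptors, was at 52.5, 22.2 and 37.8 CPM in Control 1 to 3 and 157, 264 and 246 CPM in Model 1 to 3 (log2 fold change 2.57, SE 0.35, adjusted p = 0.00130), and was called in all 14 settings. Socs1, the inhibitor more closely tied to interferon receptors, was at 10.4, 2.39 and 4.42 CPM in Control and 0.162, 2.19 and 0 CPM in Model (-2.86, SE 1.89, adjusted p = 0.520). Ptpn6, the phosphatase SHP-1 of blood cells, fell by 1.40 on the log2 scale (SE 0.29, adjusted p = 0.0170), a call lost without Control 1 or Model 3 (adjusted p from 0.0604 to 0.118 with these and with Control 1 and Model 2 both left out).

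Further interferon-stimulated genes outside the member list mostly had positive fold changes, with calls in both directions. Of 73 tested, 61 had a positive log2 fold change and 12 a negative one, with a median of 0.54. Among all tested genes 49.6% were positive. By the test 10 rose and 2 fell, against 2.71% and 1.36% of all tested genes. Slfn4, a Schlafen gene of myeloid cells, had the largest value, from 3.14, 2.26 and 7.71 CPM in Control to 177, 206 and 197 CPM in Model (5.47, SE 0.48, adjusted p = 5.70e-05), and was called in all 14 settings. Cxcl10, a chemokine for activated T cells, went from 1.10, 5.97 and 7.66 CPM to 15.2, 125 and 54.5 CPM (3.73, SE 0.83, adjusted p = 0.0258), a call lost without Control 1 or Model 2 (adjusted p from 0.0700 to 0.214 over its losses). Fam46c, a poly(A) polymerase, rose by 2.96 on the log2 scale, to 666, 836 and 191 CPM in Model 1 to 3. Ube2l6, the conjugating enzyme for ISG15, rose by 2.79, to 134, 257 and 49.1 CPM. The red cell sums had the same order over these libraries, at 15620, 29250 and 5006 CPM. The part of red cells in the rise of Fam46c and Ube2l6 was not tested. Neither lost its call when 1 library was left out, but Ube2l6 did without Control 1 and Model 2 together (adjusted p = 0.0976). Mnda and Ifi204, both HIN-200 genes, rose by 2.67 and 2.60. Mnda was called in 5 of the 14 settings and lost its call without any 1 library except Control 3, and Ifi204 without Model 1 (0.0549). Epsti1 (-1.73) and Ifi30 (-1.44), named after their values were seen, fell. Epsti1 lost its call without Control 1, Model 1 or Model 3, and Ifi30, called in 6 of the 14 settings, without any 1 library except Control 2. A list weighted toward interferon gamma shares Cxcl10 with the list above. Of its 19 tested genes, 4 were called higher and 1 lower (median 0.17). Nos2, inducible nitric oxide synthase, had a log2 fold change of 3.25, and Ciita, the master factor of MHC class II, one of -2.27. Those of Iigp1 and Gbp2, both GTPases, were 1.63 and 1.19, and the fourth gene called higher was Cxcl10. Ciita was called in all 14 settings, Nos2 lost its call without Model 1 (0.0655), and Gbp2 without any 1 library except Control 1. Iigp1, whose groups overlapped (adjusted p = 0.0488), was called in only 3 of the 14 settings. It lost its call without any 1 library except Model 1, and also with RLE or upper-quartile scaling, the replicate block, a minimum count of 100 and limma-voom. Over all 8 lists, each gene counted once, 15 of 137 tested genes were called higher and 5 lower, against 2.71% and 1.36% of all tested genes.

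**Figure D5:**
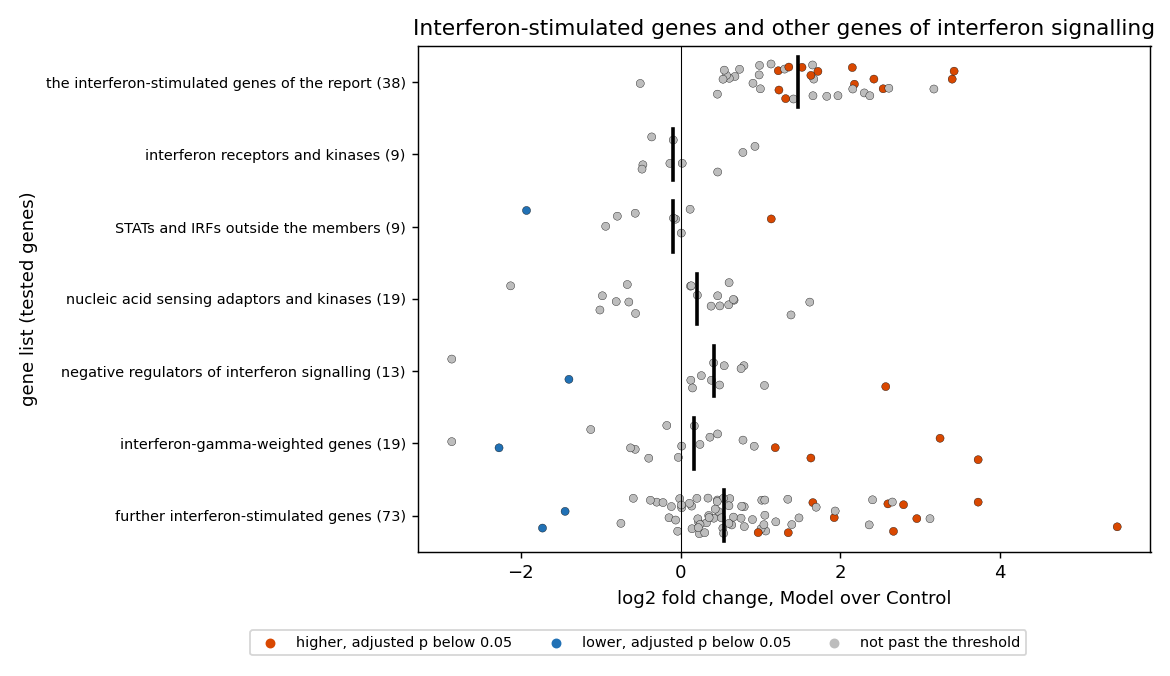
Log2 fold change of each tested gene in the member list and in 6 other lists of interferon signalling, with the list median as a black bar and called genes in colour. The member median of 1.47 stands against medians between -0.09 and 0.54 in the other lists, and Slfn4 is the point farthest right.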

How the data were processed

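Gene expression was measured by RNA-seq in 3 Control and 3 Model mouse samples, grouped by their titles. RNA was depleted of ribosomal RNA and sequenced on a NovaSeq 6000, and cutadapt 1.9.3 trimmed the reads, per the labels' protocols. Aligner STAR 2.5.1b, build mm10 and edgeR 3.16.5 appear in the submitters' processing notes. What counted the reads, with which annotation and strand setting, is not given in the sources used here, and so genes that overlap on both strands may share reads. Raw gene counts, so named per the file headers, were used as the authors deposited them. Its 6 columns of normalized values were not used.

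The function filterByExpr at a minimum count of 10 retained 13907 of 17761 genes, which were TMM-scaled (trimmed mean of M values) and fitted with edgeR 4.0.16 in R 4.3.3 (quasi-likelihood test, Benjamini-Hochberg adjustment over all tested genes, threshold 0.05, two-sided). The standard error (SE) is the log2 fold change divided by the square root of F. A count of 0 allows up to 3 counts, which covers counting error only. Coordinates and exon lengths are from GENCODE M21 on GRCm38. The members, pathway lists and marker lists were chosen with earlier results of these data known. All members are named, with up to 6 called genes of each other list and 10 others fixed by name, 1 of which is not reported here. Alternatives were leaving out each library, leaving out Control 1 and Model 2 together, upper-quartile or RLE scaling, the replicate number as a block, no filter, a minimum count of 100, DESeq2 1.42.0 and limma-voom (limma 3.58.1). Correlations between members over the 6 libraries are not given, since the libraries fall into 2 separate groups.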

Additional observations from a re-analysis of the deposited data

How the results depend on the processing

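With 1 library left out, the number of members called higher ranged from 3 (without Model 2) to 14 (without Control 3), against 13 in all, and that of all genes called from 317 (without Model 1) to 440, against 566. Other interferon pathway genes called higher ranged from 8 to 11, against 15, and lower from 2 to 5, against 5. Without Control 1 and Model 2 together, 4 members, 9 higher and 1 lower pathway gene and 285 genes in all were called, and the members' median log2 fold change was 1.05. With upper-quartile scaling, which moved the median log2 fold change of all genes to -0.065, 9 members and 557 genes were called, and Oas2, Irf7, Ddx58 and Xaf1 lost their calls. Without a filter on low counts 22 members and 1111 genes were called, and with DESeq2 21 and 1386. No member was called lower in any of the 14 settings. Same-numbered libraries deviated together with correlations of 0.147, 0.119 and 0.004, against -0.159 to 0.073 for libraries of different number. These small values do not settle whether the replicate numbers pair the samples. With the replicate number as a block, 16 members and 13 other pathway genes were called higher, 4 pathway genes lower and 575 genes in all, with a member median of 1.53. Among 532 member fold changes under alternatives, 451 kept direction and call, 51 lost a call and 28 gained one. The sign of Dtx3l turned without Model 2 (-0.08, range to 0.81 with 1 library left out) and without Control 1 and Model 2 (-0.13). The cause was not tested. Some members had few counts in Control 1, which held 3 for Isg15, 10 for Oas1a, 14 for Rtp4 and 33 for Oas3. Its total was 36640756 counts. Control 3, with a lower total of 31924426, held 203, 486, 339 and 401 for the same genes. What made these members low in Control 1 was not tested.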

Other observations

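Control 1 departed from the other Controls in opposite directions at different members, sometimes at neighbouring genes. Its level was below 0.5 of the mean of Control 2 and Control 3 for 12 of the 38 members and above that mean for 14. The ratio was 0.0190 for Isg15, 0.0262 for Oas1a, 0.0331 for Rtp4 and 0.0718 for Ifit3. It was 2.88 for Zbp1, 2.52 for Mx1, 2.24 for Bst2 and 1.98 for Nmi. Rsad2 and Cmpk2, which lie head to head, had ratios of 1.52 and 0.169, and Ifit2 and Ifit3, which are 7111 bases apart, had 0.847 and 0.0718. Control 1 departed in both directions at genes outside the members as well. Control 1 to 3 held 77, 1574 and 1736 counts of Cd163 and 5096, 415 and 410 of Ccr9. All of these genes were named after their values were seen, and no test was made on a single library.

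Model 2 exceeded the mean of Model 1 and Model 3 for 36 of the 38 members, with a median ratio of 1.65 and a ratio of at least 2 for 11. Ifit2 (3.89), Cmpk2 (3.53), Oasl1 (3.17) and Usp18 (3.12) had the largest ratios. Trim25 (1.01) and Irf9 (1.07) were nearly level, and Oas1a (0.793) and Ifitm3 (0.526) were lower in Model 2.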
